A study of Rattus norvegicus with 4 samples.

Results

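The peaks described here are all those on rat chromosome 12 in 2 deposited peak lists of a CD44 ChIP-seq experiment, chosen by chromosome alone. They number 9744 of 699216 peaks in all. The list from cells in serum gave 2604 of its 289279 peaks, and the list from serum-starved cells gave 7140 of its 409937. The cells were nucleus pulposus cells of the rat, the cells of the gel-like centre of the intervertebral disc, kept either with 10% fetal bovine serum or starved with 0.1%. Each condition had 1 library precipitated with a CD44 antibody and 1 input library. No genetic change, strain, age or number of cultures is named in the labels, and no marker of the cell type can be checked in a peak list.

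CD44 is a receptor on the cell surface that binds hyaluronan, a main sugar polymer of the disc matrix. Proteases can cut it at the membrane, and the intracellular fragment they release can enter the nucleus. A ChIP-seq peak is a place where fragments pile up above the local background. It shows where DNA was recovered with the antibody, and in a single library it cannot by itself tell bound protein from uneven recovery. Rat chromosome 12 is a small chromosome and one of those that carry ribosomal RNA genes. The positions are on Rnor_6.0, whose genes and sequence were not used here, so the peaks below are given by position and not by gene.

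With 1 precipitated library per condition, no value below has a replicate and no difference was tested. All values describe these libraries. Intervals are exact 95% intervals that cover counting error only, and neighbouring peaks and windows are not independent. The lists also differ in scale. Over its whole list, no serum peak had a local background under 1.502 stacked fragments, while for starved peaks the floor was 0.0996. Heights were therefore set against other chromosomes of the same list only.

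With all peaks counted, chromosome 12 was poor in peaks in serum, and only a little below the other autosomes after starvation. It makes up 2.01% of the autosomal length, taken to the last peak of either list. It held 1.005% of the autosomal serum peaks and 1.88% of the starved ones. The serum density was 49.4 peaks per Mb (interval 47.5 to 51.3), against 99.9 on the other 19 autosomes together, a ratio of 0.494 (interval 0.475 to 0.514). Chromosome 4 was lower at 43.0 and chromosome 10 came next at 53.5. The starved density was 135.4 per Mb (interval 132.3 to 138.6), against 145.0 on the other autosomes, a ratio of 0.934 (interval 0.913 to 0.956). This was the lowest of the 20 autosomes, but the interval overlapped that of chromosome 20, at 138.1. The 6744 starved peaks that met no serum peak had a ratio of 0.985 (interval 0.962 to 1.0095) and ranked 10 from the lowest, while the 396 that did had a ratio of 0.496. Among starved peaks whose background was at most 2 times the lowest the ratio was 0.977 (interval 0.951 to 1.00) and the rank 4. The starved list thus held 2.74 peaks for each serum peak on chromosome 12, against 1.45 on the other autosomes, 3.38 on chromosome 4 and 2.69 on chromosome 10. This number also moves with the length and depth of the lists.

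**Figure D1:**
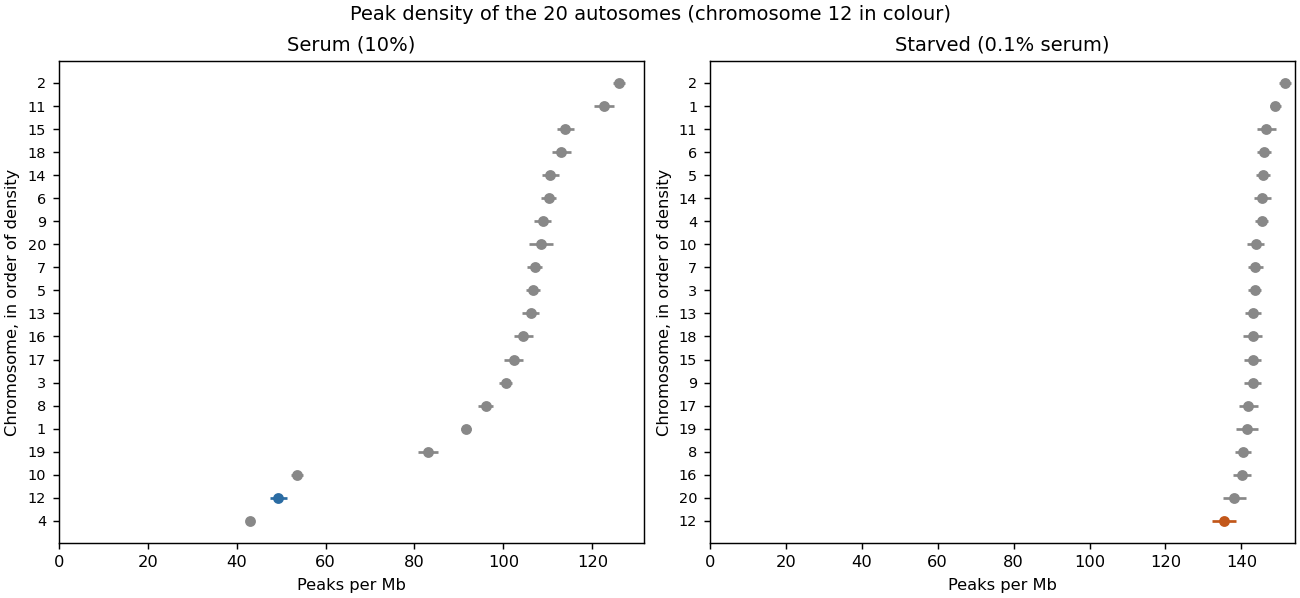
Peaks per Mb on each of the 20 autosomes in the serum list (left) and the starved list (right), sorted by density, with exact 95% Poisson intervals as bars and chromosome 12 in colour. In serum chromosome 12 sits at 49.4 with chromosomes 4 and 10, apart from the rest; after starvation it is the lowest of a narrow range at 135.4.

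Along the chromosome, every one of the 26 full windows of 2 Mb held fewer serum peaks than 200, the median over windows of the other 19. Of all autosomal windows 50.5% lay below that value. On chromosome 4, the next in this respect, 98.9% of the windows did. The windows of chromosome 12 ran from 37 to 177 serum peaks with a median of 87.5. Of them, 21 were below the lower quartile of the other autosomes (141) and 10 below their lowest decile (85). After starvation 19 of 26 windows were below the corresponding median of 285 peaks, where 50.1% of all autosomal windows lay. The starved windows ran from 190 to 347 with a median of 272.

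Among the full windows, serum peaks were densest at the start of the chromosome and sparsest from 48 to 50 Mb. The 3 windows richest in serum peaks were the first 3 of the chromosome, with 164, 177 and 164 peaks from 0 to 6 Mb. The poorest full windows were those from 48 to 50 Mb with 37, from 20 to 22 Mb with 46, and both between 44 and 48 Mb with 60 each. The partial window at the very end, from 52 to 52.7 Mb, held 38 serum peaks, which is 53.1 per Mb. The count and the order of the windows had a Spearman rho of −0.57 in serum and −0.11 after starvation over 26 windows. Without the first 3 windows it was −0.38 in serum and 0.17 after starvation over 23 windows. Other autosomes had serum values from −0.74 on chromosome 10 to 0.53 on chromosome 15. The first 6 Mb and the stretch beyond 44 Mb were set apart here after their values were seen. The first 6 Mb held 84.2 serum peaks per Mb (interval 77.0 to 91.8) and the stretch from 6 to 44 Mb held 48.0. The stretch beyond 44 Mb held 31.4 (interval 27.8 to 35.4). The starved values of the same stretches were 153.3, 132.6 and 135.5 per Mb.

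**Figure D2:**
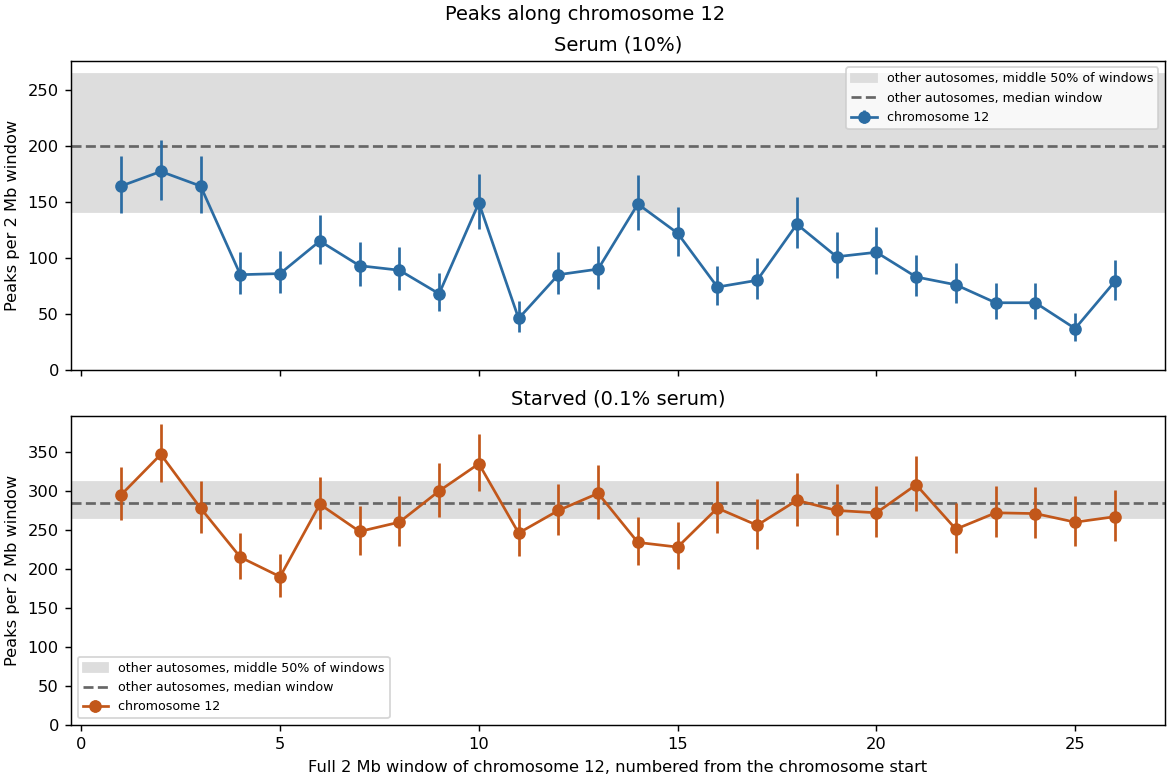
Peaks in each full 2 Mb window of chromosome 12, numbered from the start of the chromosome, in the serum list (top) and the starved list (bottom), with exact 95% Poisson intervals. The grey band holds the middle 50% of windows of the other autosomes and the dashed line their median, 200 serum and 285 starved peaks; all 26 serum points lie below the line, and 19 of the 26 starved points do.

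The starved list had its own rich and poor windows. The richest were from 2 to 4 Mb with 347 peaks, from 18 to 20 Mb with 335 and from 40 to 42 Mb with 308. The poorest were from 8 to 10 Mb with 190, from 6 to 8 Mb with 215 and from 28 to 30 Mb with 228. Only 0.157% of the windows of the other autosomes held fewer starved peaks than the window from 8 to 10 Mb. The longest stretch of the chromosome without a peak of either list lies in it, 171 kb from 8535053 to 8706213.

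The windows rich in one list were in part rich in the other. From 2 to 4 Mb both lists had their highest count, and from 18 to 20 Mb serum had 149 and starved 335 peaks. From 26 to 28 Mb, in contrast, serum had 148 peaks, the fifth highest count, and starved 234, the fourth lowest. Starved peaks outnumbered serum peaks 1.58 to 1 in that window and 7.03 to 1 from 48 to 50 Mb, the extremes of the chromosome. Over the 26 windows the counts of the 2 lists had a Pearson r of 0.38 and a Spearman rho of 0.30, against 0.23 and 0.21 over the 1275 windows of the other autosomes. Without the first 3 windows the values were 0.14 and 0.099. Windows share their sequence and mappability between the lists, so these values are a description.

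**Figure D3:**
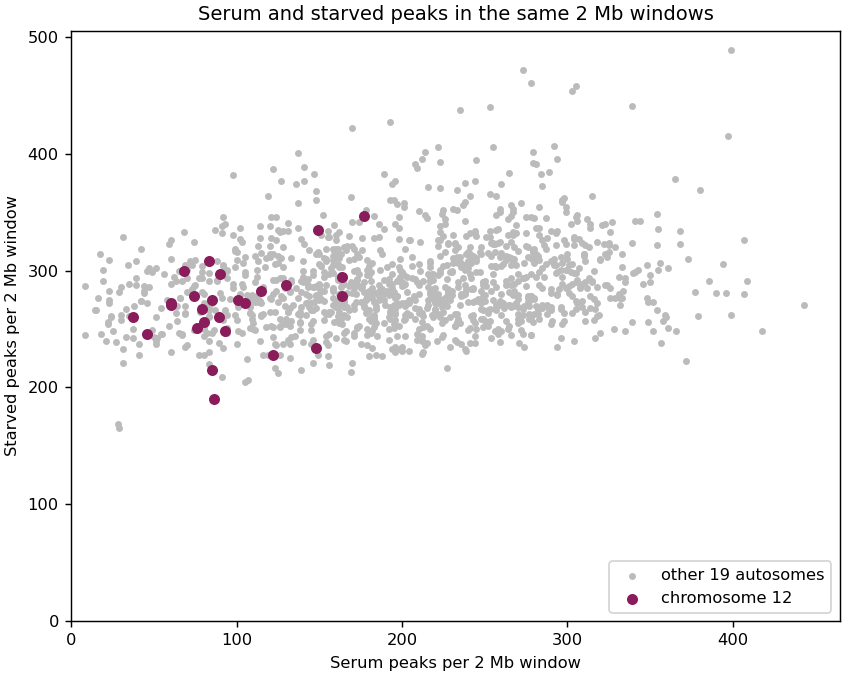
Serum peaks (horizontal axis) against starved peaks (vertical axis) in the same full 2 Mb windows, with the 1275 windows of the other 19 autosomes in grey and the 26 of chromosome 12 in colour. The windows of chromosome 12 lie between 37 and 177 serum peaks, in the left part of the grey cloud. They lie between 190 and 347 starved peaks, on both sides of the median of the other autosomes (285), with 19 below it.

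The pileup of a peak is the number of fragments stacked at its highest point. On chromosome 12 the median pileup was 7 in serum (quartiles 6 and 8) and 2 after starvation (quartiles 1 and 3), as on most other autosomes of each list. In serum, peaks up to 30 fragments high were fewer at every height. From 4 to 10 fragments the density ratio to the other autosomes lay between 0.458 and 0.522, and from 16 to 30 fragments it was 0.578 (interval 0.457 to 0.722). The tallest class, 31 fragments or more, had 43 peaks and a ratio of 0.996 (interval 0.719 to 1.35). After starvation the ratio went down with height. It was 1.05 (interval 1.011 to 1.08) for peaks of 1 fragment, 0.901 for 2, 0.825 for 4 to 5 and 0.721 (interval 0.616 to 0.840) for 10 to 19. The 22 peaks of 20 fragments or more had a ratio of 1.08 with a wide interval, from 0.677 to 1.65. Peaks of 1 fragment were 45.6% of the starved peaks of chromosome 12, where they were 40.9% of the whole list and 42.3% on chromosome 10, the next highest autosome.

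Peaks on chromosome 12 were short in both lists. The median length was 332.5 bp in serum and 224 bp after starvation, each the lowest of the 20 autosomes, whose other medians ran from 336 to 355 bp and from 229 to 234 bp. Of the starved peaks 45.5% had the shortest length of that list, 217 bp, against 40.5% of the whole list. Of the serum peaks 28.3% had the shortest, 272 bp, against 24.6% of the whole list. The deficit of chromosome 12 grew with length. Starved peaks of the shortest length were 1.05 times as dense as on the other autosomes, those of 500 to 699 bp 0.626 times, those of 700 to 999 bp 0.416 times and those of 1 kb or more 0.240 times (interval 0.163 to 0.341). The serum ratio went from 0.569 at the shortest length to 0.348 at 700 to 999 bp. It was 0.460 (interval 0.297 to 0.681) at 1 kb or more. By height, the serum median length was below that of the other autosomes in each class from 5 to 10 fragments, but not in taller ones. At 11 to 15 fragments it was 416 bp, against 411 bp, and at 16 or more 443.5 bp, against 426 bp.

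**Figure D4:**
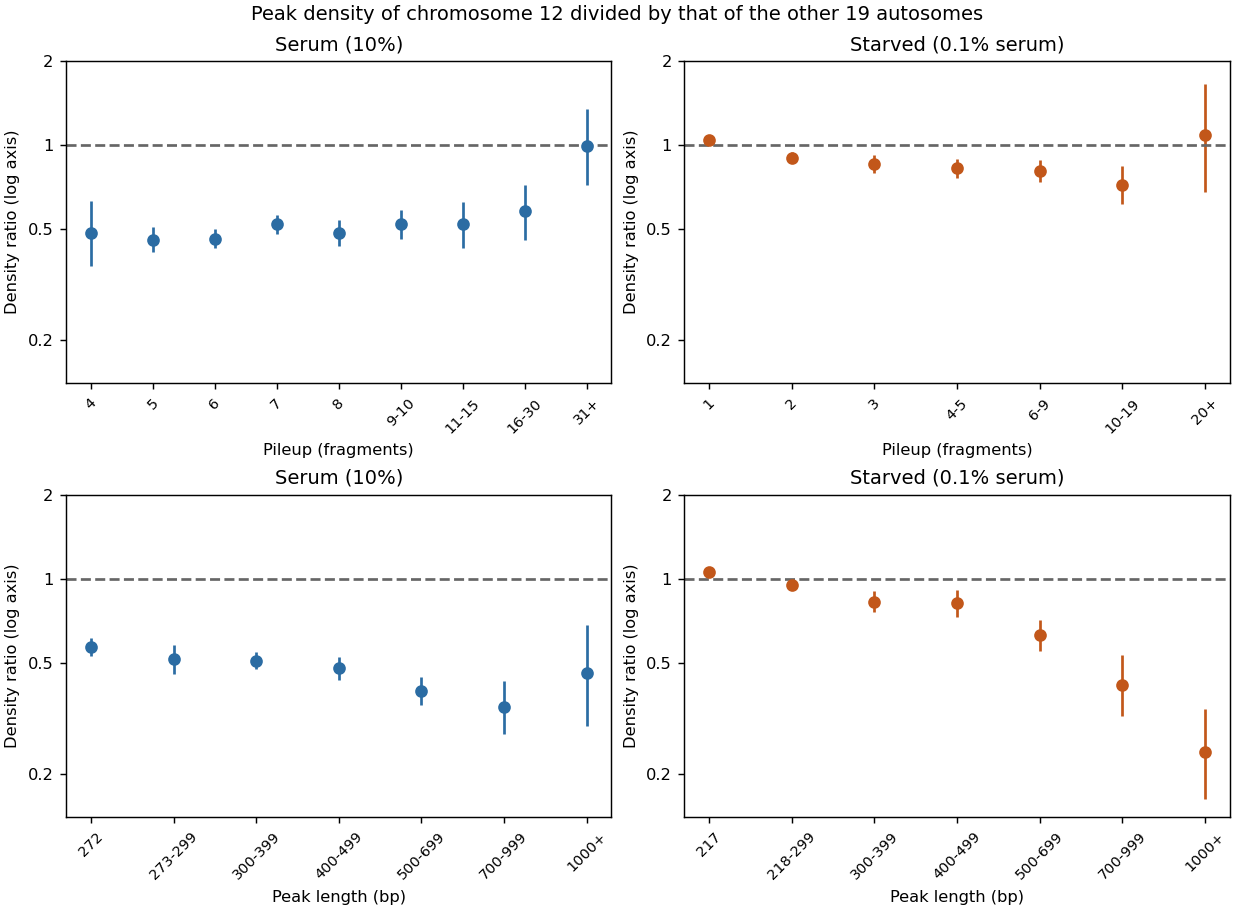
Peak density of chromosome 12 divided by that of the other 19 autosomes, on a log axis with exact 95% intervals, for classes of pileup (top) and of peak length (bottom) in the serum list (left) and the starved list (right); the dashed line marks equal density. The starved ratio falls with length from 1.05 to 0.240, while the serum ratio lies near 0.5 in most classes.

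Long starved peaks were the class most depleted. Only 31 starved peaks on chromosome 12 were 1 kb or longer, which is 0.434% (interval 0.295 to 0.616), against 1.83% of the whole list. Every other autosome had a higher share, the next being chromosome 10 with 0.778% (interval 0.649 to 0.926) and chromosome 19 with 0.943%. In serum the share of such peaks was 0.960% (interval 0.622 to 1.41), against 1.03% on the other autosomes, and 7 autosomes had a lower share. Among starved peaks of like height the values depended on the height. At 2 fragments 0.223% of the peaks of chromosome 12 reached 1 kb, against 0.231% on the other autosomes, and at 3 fragments 0.139% did, against 1.60%. At 4 to 5 fragments the shares were 0.878% and 3.85%. At 6 to 9 fragments 2.20% of the starved peaks of chromosome 12 reached 1 kb, against 7.12% on the other autosomes, and at 10 fragments or more 4.71% did, against 13.6%. In the first 6 Mb 13 of 920 starved peaks reached 1 kb (1.41%), and in the rest of the chromosome 18 of 6220 did (0.289%). The longest starved peak, 2530 bp at chr12:21256148-21258677, had a pileup of 7 and overlapped no serum peak.

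The strongest peaks of chromosome 12 were modest for an autosome in serum and few after starvation. At a q of at most 0.05 there were 473 serum peaks (18.2%, against 19.9% of the whole list) and 3448 starved peaks (48.3%, against 52.0%). At a −log10 q of at least 5 there were 37 serum peaks (1.42%, against 1.22%) and 793 starved peaks (11.1%, against 13.0%). At 20 or more there were 2 serum peaks (0.0768%, against 0.109%) and 38 starved peaks (0.532%, against 0.727%). Per Mb, chromosome 12 had the fewest peaks of the 20 autosomes at both of these higher limits in both lists, but each interval overlapped that of the next autosome. At 5 or more the starved density was 15.04 per Mb (interval 14.0 to 16.1), and chromosome 10 came next with 16.4 (interval 15.7 to 17.2). The highest fold enrichment of any serum peak, 8.08, was the lowest such maximum among the 20 autosomes, whose other maxima ran from 8.91 to 21.98. The highest starved value, 26.3, was the fourth lowest. Such a maximum depends on the number of peaks, and chromosome 12 had the fewest serum and starved peaks of the 20.

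The 5 serum peaks with the highest fold enrichment lay in 4 windows, and 4 of them overlapped a starved peak. All 5 had a −log10 q of at least 5, and of all such serum peaks 90.3% overlapped a starved peak. The highest of the 5 formed a pair. The peak at chr12:7740718-7741255 had a fold enrichment of 8.08 and a pileup of 51, and it lay wholly inside a starved peak of 1130 bp with a fold enrichment of 19.4 and a pileup of 21. Just beyond it, the peak at chr12:7741749-7742236 (7.53-fold, pileup 27) held a whole starved peak of 356 bp (10.5-fold, pileup 14). This place was strong in both lists. The third, at chr12:45195304-45195847 (7.45-fold, pileup 22), met only a starved peak of 2 fragments. The fourth, at chr12:30399324-30399697 (7.29-fold, pileup 42), held a starved peak of 8.35-fold and 10 fragments. The fifth, at chr12:3198129-3198622 (6.08-fold, pileup 15), had no starved partner, the nearest being 492 bp away. Fold enrichments of the 2 lists rest on different backgrounds and are given side by side only.

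Among the 5 most enriched starved peaks, 2 met a serum peak. All 5 had a −log10 q of at least 20, and of all such starved peaks 36.0% met a serum peak. The highest, at chr12:32783070-32783401, had a fold enrichment of 26.3 and a pileup of 29, and its nearest serum peak was 1318 bp away. The next, at chr12:43269258-43269625 (20.8-fold, pileup 22), lay 2768 bp from the nearest serum peak, which had 5 fragments. The peak at chr12:38282184-38282699 (20.2-fold, pileup 22) overlapped a serum peak of 16 fragments by 366 bp. The fourth was the 1130 bp peak near 7.74 Mb described with its serum partner. The fifth, at chr12:20179025-20179426 (19.1-fold, pileup 20), was 639 bp from a serum peak of 5 fragments. A peak at chr12:26098525-26098864 tied with it in fold enrichment and pileup and had no serum peak within 8 kb. Among the 5, the 3 without a partner had local backgrounds of 1.42, 1.06 and 1.00 times the lowest of the starved list. The 2 with a partner stood at 1.42 and 1.32 times. The median starved peak of the chromosome stood at 1.42 times. The part of background in the lack of a partner was not tested.

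Strong serum peaks gathered at the start of the chromosome. Of the 37 at a −log10 q of at least 5, 22 lay in the first 6 Mb, with 10 each in the windows from 0 to 2 Mb and from 2 to 4 Mb. The window from 6 to 8 Mb came next with 4, and 1 of the 37 lay beyond 44 Mb. This is 3.67 per Mb in the first 6 Mb and 0.321 per Mb in the rest, against 1.17 per Mb on the other autosomes. Strong starved peaks were spread more evenly, with 20.5 per Mb in the first 6 Mb and 14.3 in the rest. Their richest windows were from 32 to 34 Mb with 50, from 0 to 2 Mb with 47 and from 2 to 4 Mb with 45. In the window from 32 to 34 Mb serum had 1 strong peak among 80.

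The local background was highest in the same first 6 Mb. It was computed for each peak from its pileup and fold enrichment and is given as a multiple of the lowest of its list. In the first 6 Mb 66 of 505 serum peaks (13.1%) and 97 of 920 starved peaks (10.5%) had a background over 5 times the lowest. In the rest of the chromosome 10 of 2099 (0.476%) and 38 of 6220 (0.611%) did. Over the whole lists the shares were 1.58% and 2.14%. The 3 tallest serum peaks all lay there. They had pileups of 218 at chr12:5553250-5553607, 215 at chr12:1511969-1512447 and 176 at chr12:479948-480542, but fold enrichments of only 1.75, 1.77 and 2.01 on backgrounds of 82.5, 80.7 and 57.9 times the lowest. The overlapping starved peaks had backgrounds of 81.6, 67.4 and 57.5 times the lowest of their own list. Of the 22 strong serum peaks in the first 6 Mb, 17 had a background over 2 times the lowest, against 8 of the 15 in the rest. The part of this background in the count of strong peaks was not tested.

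Few peaks of chromosome 12 stood at the lowest background, counted as at most 1% above the lowest of the list. In serum 14.7% did (interval 13.4 to 16.1), against 31.7% of the whole list, 27.2% on the other autosomes and 4.56% on chromosome 4. After starvation 11.3% did (interval 10.6 to 12.1), against 17.1% of the whole list and 14.2% on the other autosomes. Starved shares were lower on chromosome 4 with 2.90% and chromosome 10 with 6.55%, and nearly the same on chromosome 19 with 11.4%. Serum peaks at the lowest background were 0.268 times as dense as on the other autosomes (interval 0.241 to 0.296), and those above it, up to 2 times the lowest, 0.572 times. Of all serum peaks, 11.8% had a background over 2 times the lowest, against 9.15% of the whole list. After starvation the share was 22.1%, against 25.0%. Across the 26 windows the shares at the lowest background in the 2 lists had a Spearman rho of 0.79 and a Pearson r of 0.82.

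Peaks of the lists were called shared where they overlapped by at least 1 bp. On chromosome 12, 393 serum peaks (15.1%, interval 13.7 to 16.5) overlapped a starved peak, against 15.7% of the whole serum list. In the other direction 396 starved peaks (5.55%, interval 5.03 to 6.10) overlapped a serum peak, against 11.0% of the whole starved list. The serum share was below that of 5 other autosomes and above that of 14, which ran from 13.2% on chromosome 19 to 22.3% on chromosome 4. The starved share was the lowest of the 20, with chromosome 10 at 5.86% (interval 5.50 to 6.23), chromosome 4 at 6.42% and chromosome 19 at 7.74% next to it. The same 4 chromosomes had the fewest serum peaks per Mb, and the part of this in the starved share was not tested. The other autosomes had 473 windows within the range of serum counts seen on chromosome 12, from 37 to 177. In them 6.77% of the starved peaks were shared (interval 6.64 to 6.91), against 5.58% in the full windows of chromosome 12 (interval 5.05 to 6.14). The range was the same but not the counts, since those windows held 122.9 serum peaks on average and the windows of chromosome 12 held 98.7. No difference between the shares is therefore read as particular to chromosome 12. The part of the serum count in it was not tested. The share of starved peaks of 1 kb or more was 1.06% in the 473 windows and 0.441% in the full windows of chromosome 12.

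**Figure D5:**
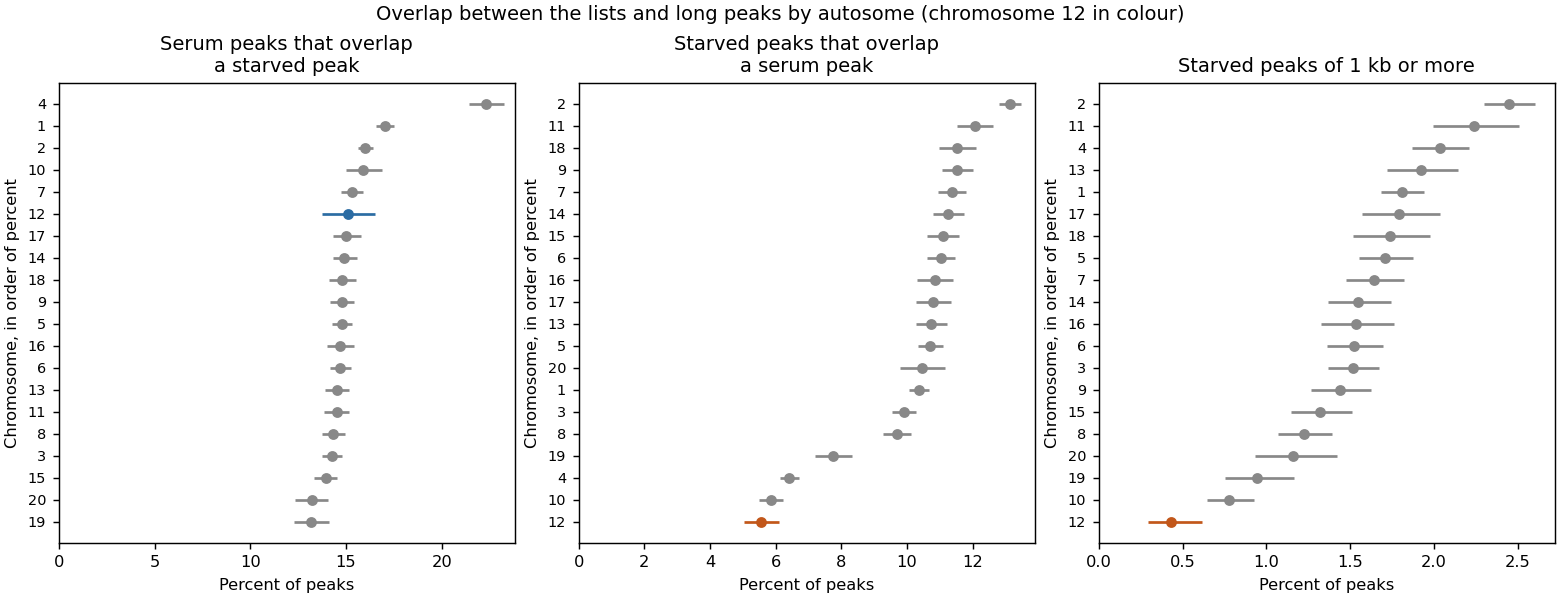
Percent of serum peaks that overlap a starved peak (left), of starved peaks that overlap a serum peak (middle) and of starved peaks of 1 kb or more (right) on each of the 20 autosomes, sorted within each panel, with exact 95% binomial intervals and chromosome 12 in colour. Chromosome 12 is above 14 of the other autosomes at 15.1% on the left and lowest at 5.55% and 0.434% in the other panels.

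The shared peaks formed 401 pairs. Their median overlap was 217 bp, and their midpoints lay a median of 133 bp apart. In 85 pairs the starved peak lay wholly within the serum peak, and in 48 the serum peak lay within the starved one. The pairs ranged widely in strength. Both peaks had a q of at most 0.05 in 106 pairs, both had a higher q in 113, and both reached a −log10 q of 5 in 20. The starved member alone or with its partner reached it in 103 pairs, and the serum member in 27. The starved member was a single fragment in 117 pairs (29.2%). Over the pairs the pileups had a Spearman rho of 0.44 and the backgrounds 0.69, while the fold enrichments had 0.078. Partners were thus alike in background and hardly in enrichment over it. The members of a pair share their place in the genome, so these values are a description. Pairs on the other autosomes were not measured, so none of these values is read as particular to chromosome 12.

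Shared peaks were taller and longer than unshared ones. In serum the median pileup was 8 for shared and 7 for unshared peaks, and the median length 376 and 325 bp. After starvation the values were 3 and 2 fragments, and 265.5 and 222 bp. The same order held on the other autosomes, with 386 and 343 bp in serum and 279 and 229 bp after starvation. On chromosome 12, 30.5% of the shared serum peaks had a background over 2 times the lowest, and so had 8.46% of the unshared. The other autosomes had 34.4% and 4.78%, a wider contrast. After starvation the values were 36.9% and 21.3% on chromosome 12, and 40.3% and 23.8% on the other autosomes.

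Sharing was also counted among the stronger peaks, with no test of any difference. Of the 473 serum peaks with a q of at most 0.05, 137 were shared (29.0%, interval 24.9 to 33.3), against 28.1% of all such serum peaks and 27.3% on the other autosomes. Of the 3448 such starved peaks, 248 were shared (7.19%, interval 6.35 to 8.11), against 14.1% of all such starved peaks. At this limit the interval of the serum share held that of the whole list, and the interval of the starved share did not. Of the 37 strong serum peaks (−log10 q of 5 or more), 27 were shared (73.0%, interval 55.9 to 86.2), against 90.3% of all such serum peaks. This was the lowest share of the 20 autosomes, next to 81.2% on chromosome 19, and it rests on 10 unshared peaks. Of the 793 starved peaks at this limit, 101 were shared (12.7%, interval 10.5 to 15.3), against 21.6% of all such starved peaks. At 20 or more, both serum peaks were shared, against 96.5% of all, and 12 of the 38 starved peaks were (31.6%, interval 17.5 to 48.7), against 36.0% of all. Of the serum peaks with a background over 2 times the lowest, 39.1% met a starved peak (interval 33.6 to 44.8), against 58.9% of all such serum peaks. Of those with a lower background 11.9% did (interval 10.6 to 13.3), against 11.4% of all such serum peaks and 11.05% on the other autosomes. Of the starved peaks with a background over 2 times the lowest, 9.23% were shared (interval 7.85 to 10.8), against 17.5%. Of those with a lower background 4.50% were (interval 3.97 to 5.08), against 8.83%. Of the long peaks of 1 kb or more, 11 of 25 serum peaks (44%, against 42.0%) and 19 of 31 starved peaks (61.3%, against 66.4%) were shared.

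Sharing was uneven along the chromosome. The first 6 Mb had 109 of the 393 shared serum peaks, a share of 21.6% (interval 18.1 to 25.4), against 13.5% in the rest (interval 12.1 to 15.1). The starved shares were 11.7% (interval 9.73 to 14.0) and 4.63% (interval 4.12 to 5.18). Among the full windows the serum share was highest from 0 to 2 Mb with 26.2% and from 20 to 22 Mb with 26.1%. It was lowest from 14 to 16 Mb, where 1 of 89 serum peaks (1.12%) and 1 of 260 starved peaks (0.385%) met a peak of the other list. From 18 to 20 Mb 36 of 149 serum peaks (24.2%) were shared, so that high sharing also occurred outside the first 6 Mb.

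The median distance between neighbouring peaks was 10.3 kb in serum and 4.52 kb after starvation, and 9.07% and 15.3% of neighbours lay within 1 kb of each other. In serum chromosome 4 had a slightly larger median of 10.4 kb and the other 18 lay between 4.35 and 7.67 kb. After starvation chromosomes 19 and 20 came close with 4.32 and 4.31 kb. On the other autosomes the share of neighbours within 1 kb ran from 10.0% to 15.9% in serum and from 17.3% to 23.6% after starvation. Serum peaks covered 1.90% of chromosome 12 and starved peaks 3.68%, against 4.02% and 4.41% of the other autosomes together. The bases shared by both lists were 9.06% of the serum and 4.68% of the starved peak bases of the chromosome. The longest run without a serum peak was 332 kb, from 21329019 to 21661151, and another of 267 kb followed close behind it, from 21663182 to 21930245. The longest starved peak, given among the long peaks, ended at 21258677, before the first of these runs. A serum peak at chr12:21259616-21260048, 939 bp away, lay between them.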

How the data were processed

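Both deposited peak lists were used whole. The submitters' processing notes list Rnor_6.0 as the build, with MACS2 2.1.1, STAR 2.5.3a and FastQC as tools. How they were run, how duplicate reads were treated and how libraries were scaled is not given in the sources used here. Per the file headers, each row holds a position, a length in bp, a fold enrichment (a ratio), a p-value, a q-value named FDR and a pileup signal. A list was matched to its precipitated library by the prefix of its peak names. The authors deposited these values, which describe a peak within its list.

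Solving fold enrichment = (pileup + 1) / (background + 1) gave each peak's local background. A Poisson p computed from it differed from the deposited p-value by at most 0.05 in log10 for 100% of peaks. Peaks were counted by midpoint in 2 Mb windows from the chromosome start. Chromosome lengths were approximated by the last peak end. Overlaps were found with bedtools 2.31.1. Intervals are exact 95% Poisson or binomial intervals, and exact conditional ones for density ratios. Read totals were not used, so depth is known only through the lowest background and the pileups. Python 3.11.15, pandas 2.3.3, numpy 2.4.6, scipy 1.17.1 and matplotlib 3.10.9 were used, and the calculations were tested on simulated data.

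The chromosome, the comparisons and the alternatives were chosen with earlier results of these data known. By rule, the peaks named are the 5 of highest fold enrichment in each list, and the windows named are the 3 richest and the 3 poorest in peaks and the 3 richest in strong peaks. The tallest and longest peaks, the first 6 Mb, the classes of pileup and length, the pairs, the distances and the other windows named were added after the values were seen.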

Additional observations from a re-analysis of the deposited data

Results flagged for a closer look

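In 7 windows of chromosome 12 the starved count lay above the median window of the other autosomes (285 peaks) while the serum count lay below its own (200 peaks). All 26 full windows lay below the serum median, so only the starved count decided which windows are listed. Of all autosomal windows, 50.1% lay below 285 starved peaks and 50.5% below 200 serum peaks. Windows of the other autosomes with this pattern were not counted, so the 7 are not read as particular to chromosome 12. The opposite directions of the lists were not tested, and each list is 1 library. The 7 windows held 295 starved and 164 serum peaks from 0 to 2 Mb, 347 and 177 from 2 to 4 Mb, 300 and 68 from 16 to 18 Mb, 335 and 149 from 18 to 20 Mb, 297 and 90 from 24 to 26 Mb, 288 and 130 from 34 to 36 Mb, and 308 and 83 from 40 to 42 Mb. The interval of the starved count lay above 285 only from 2 to 4 Mb (311 to 385.5) and from 18 to 20 Mb (300 to 373). On the log2 scale relative to those medians, the window from 16 to 18 Mb was the farthest apart, at 0.074 for starved and −1.56 for serum peaks.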

How the results depend on the processing

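No paired analysis was possible because there was 1 precipitated library per condition, and no replicate could be left out for the same reason. Of 62 recomputed values, 28 stayed within the interval of the reported value, at the same rank or within 1.5 times a count, and 34 moved. Keeping fewer peaks lowers a density by construction, and another overlap rule changes a share by construction. The tally therefore does not measure how firm the results are. Keeping a q of at most 0.05, the density was 8.97 serum and 65.4 starved peaks per Mb, the ratio to the other autosomes 0.457 and 0.869, the starved rank from the lowest 2, the median pileup 9 and 3, the median length 393 and 264 bp, and the serum share at the lowest background 17.5%. With a −log10 q of 5 or more the densities were 0.702 and 15.04, the ratios 0.601 and 0.801, and the serum rank 1. Among peaks whose background was no more than 2 times the lowest, the densities were 43.6 and 105.5, the starved ratio 0.977 (interval 0.951 to 1.00), the starved rank 4 and the serum median length 325 bp, so the starved deficit was within counting error at that setting. The shares of serum and starved peaks shared were 7.07% and 2.58% with 50% of both peaks overlapping, 28.2% and 11.3% within 500 bp, 22.2% and 3.02% when both lists were limited to a q of 0.05, and 54.1% and 2.52% when both were limited to the strong peaks. Up to 1.1 times the lowest background lay 30.6% and 19.8% of the peaks. Without the first 6 Mb, a setting chosen after seeing the data, the serum density was 44.9, its ratio 0.450, and the shares shared 13.5% and 4.63%. Windows of 1 Mb and 5 Mb changed no count by over 1.5 times as a share of windows. In serum, however, 49 of 52 windows of 1 Mb lay below the median of the other autosomes, so not every one did. At a q of at most 0.05, 23 of 26 serum windows of 2 Mb did (88.5%), against 94.6% on chromosome 4. All 2 Mb windows held a peak, so that counting only such windows changed nothing.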
